A study of Mus musculus with 8 samples.

Results

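The 31 genes described here make, take up, export and store cholesterol in the small intestine. They were chosen by name, 21 for the synthesis pathway and its control (18 enzymes, the regulators Srebf2 and Insig1 and the sterol carrier Stard4) and 10 for sterol transport and the response to sterol (Npc1l1, Abcg5, Abcg8, Abca1, Scarb1, Soat2, Nr1h2, Nr1h3, Mylip and Lpcat3). All 31 were among the 21303 genes measured, and each had a probe well above background on all 8 arrays, so the filter on dim probes removed none of them.

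The tissue was the small intestine of mice of the strain C57BL/6J Min/+, which carry one truncated copy of the tumour suppressor gene Apc in every cell, controls included, and develop intestinal adenomas. Control males and Control females ate the unmodified semisynthetic AIN-93G diet. Western males and Western females ate a version of it with more fat and with less fibre, calcium, folate and vitamin D, in which milk supplied 66.4% of the fat and rapeseed and sunflower oils 33.6%. The labels give the feeding as 18 months, give no age, pool 1 to 3 mice per array, and do not say whether adenomas were removed. Each of the 4 groups had 2 arrays, named here by group and number. Whether the arrays of a group held different mice is not in the labels, and p-values therefore cover array-to-array spread alone, part of which may be technical.

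Cells obtain cholesterol by making it from acetyl-CoA or by taking it up. When sterol in the membranes of the endoplasmic reticulum is low, the transcription factor SREBP2 (gene Srebf2) is released and switches on the synthesis genes, and INSIG1 holds it back when sterol is plentiful. Sterol surplus forms oxysterols, which activate the liver X receptors LXRα (Nr1h3) and LXRβ (Nr1h2) and through them the export pumps. In the small intestine, NPC1L1 on the brush border takes up cholesterol from the gut lumen, ABCG5 and ABCG8 together pump sterol back, SOAT2 esterifies what is kept, and ABCA1 hands cholesterol to HDL.

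Several features of the arrays bear on these genes. The share of probes well above background was 55.1% to 61.9% on 7 arrays and 75.6% on Control female 2. The library labelled Control female 1 carried the Y-linked transcript Ddx3y at -0.46, in log2 relative to the 75th percentile of the array, the scale of every level below. The 4 male arrays lay at -1.05 to -0.68 and the other 3 female arrays at -7.57 to -6.91. The name of that library's data file also carries a Western diet abbreviation where the other control files carry a control one, so its label is in doubt. Some counts and the differences of some single genes, not of all it moved, are given without it as well. All 14 enterocyte markers were well above background on all 8 arrays. Slide 1 held replicate 1 of each group, slide 2 held Western male 2, and slide 3, scanned on another day, held the other 3 arrays.

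The diet comparison asked how the Western diet, averaged over the sexes, differed from the control diet. Of the 31 genes, 23 measured lower on the Western diet (74.2%), against 60.2% of all genes tested and 55% of the 16923 genes that, like these 31, were well above background on all 8 arrays. Without the library labelled Control female 1, 18 of the 31 measured lower, against 60.5% of all genes. Of the 21 synthesis genes, 19 measured lower, with a median log2 difference of -0.22. Of the 10 transport genes, 4 measured lower, with a median of 0.040. The median of all genes was -0.061, and -0.023 for those well above background on all 8 arrays. None of the 31 passed an adjusted p of 0.05 in limma (adjusted p 0.994 to 0.999), and neither did any other gene: 0 of 21303 (0%) were called, while 927 had an unadjusted p under 0.05. The gene with the smallest p of the 31 was Npc1l1, whose signal was lower on each of the 4 Western arrays than on any control array.

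**Figure D1:**
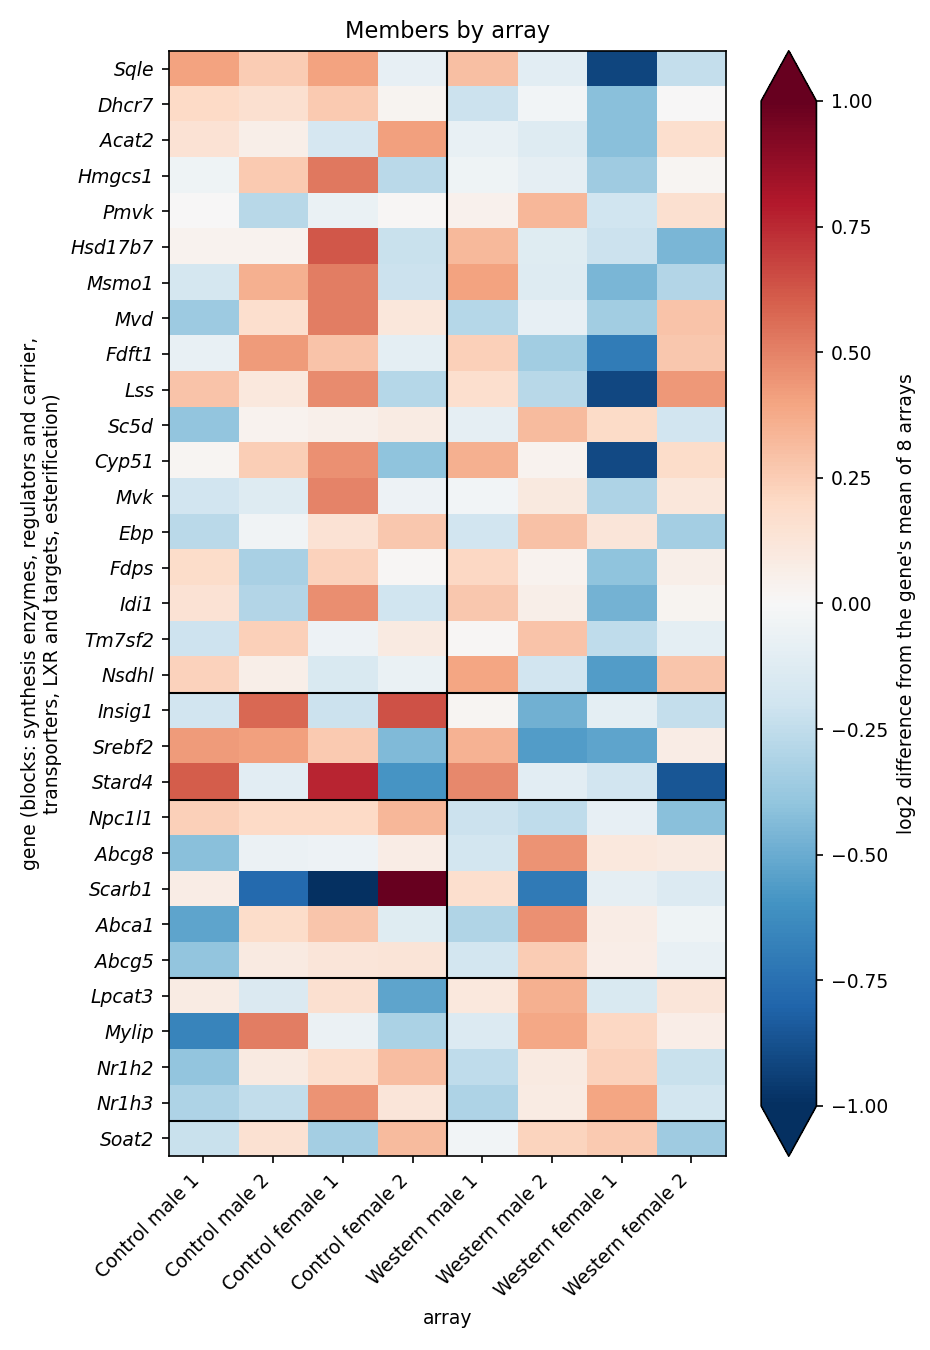
Difference of each of the 31 genes on each array from that gene's mean over the 8 arrays, in log2 (colour, limited to -1 and 1), with the genes in blocks by role and the control arrays left of the vertical line. The enzyme block is mostly red on the library labelled Control female 1 and mostly blue on Western female 1, and the Npc1l1 row is red on all 4 control arrays and blue on all 4 Western arrays.

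Npc1l1 encodes the brush-border protein through which dietary and biliary cholesterol enters enterocytes, the target of the drug ezetimibe. Its log2 signal was 4.75 and 4.71 on Control male 1 and 2, and 4.71 and 4.84 on the library labelled Control female 1 and on Control female 2. It was 4.30 and 4.26 on Western male 1 and 2, and 4.43 and 4.10 on Western female 1 and 2. The diets did not overlap, and the library whose label is in doubt sat among the other controls. The mean was 4.75 ± 0.06 on the control diet and 4.27 ± 0.14 on the Western diet (SD, n = 4 arrays each), 1.40-fold lower on the Western diet (log2 -0.48 ± 0.15 SE, limma unadjusted p = 0.0162, adjusted p = 0.994). The difference was -0.45 in males and -0.51 in females (SE 0.21 each), and the difference between the sexes in it was -0.06 ± 0.29 SE. By unadjusted p it ranked 280th among 21303 genes, and 3.72% of all genes had an unadjusted p under 0.05 and a lower value on the Western diet (2.1% of those well above background on all 8 arrays).

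The Npc1l1 difference kept its sign whichever arrays were used, but its size varied. Leaving out each array in turn gave -0.56 to -0.40, and it was -0.51 without the library labelled Control female 1 and -0.45 without Control female 2. Within slide 1 it was -0.36, and with scan day as a block -0.50. Within slide 3 it was -0.68, for Western female 2 against the mean of Control male 2 and Control female 2. Each slide 3 value below is that comparison, in which sex is not balanced between the diets. The all-gene median, -0.061 in the main scaling, was 0.047 after quantile normalization, and Npc1l1 lay -0.42 and -0.52 from it, respectively. Enterocyte markers (14 of 14 measured) averaged -0.23 to 0.28 on the control arrays and -0.35 to 0.35 on the Western arrays, relative to their mean over all arrays. Proximal intestine markers (10 of 10), the region where NPC1L1 is most abundant, averaged -0.53 to 0.52 and -0.14 to 0.51. Both ranges overlapped between the diets. Taken singly, the enterocyte marker Sis did not overlap, at 7.645 to 7.931 on the control and 6.594 to 6.955 on the Western arrays. Each other enterocyte marker overlapped. The part of cell or region content in the Npc1l1 difference was not tested. Western female 2, where Npc1l1 was lowest, had the lowest enterocyte marker mean (-0.35). It also had the highest fat cell marker mean (3.675, 7 of 9 measured, with -1.17 to 0.72 on the other arrays). Without that array the Npc1l1 difference was -0.40, and the part of this content in it was not tested. In bulk tissue, fewer cells of a type and less RNA per cell cannot be told apart.

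**Figure D2:**
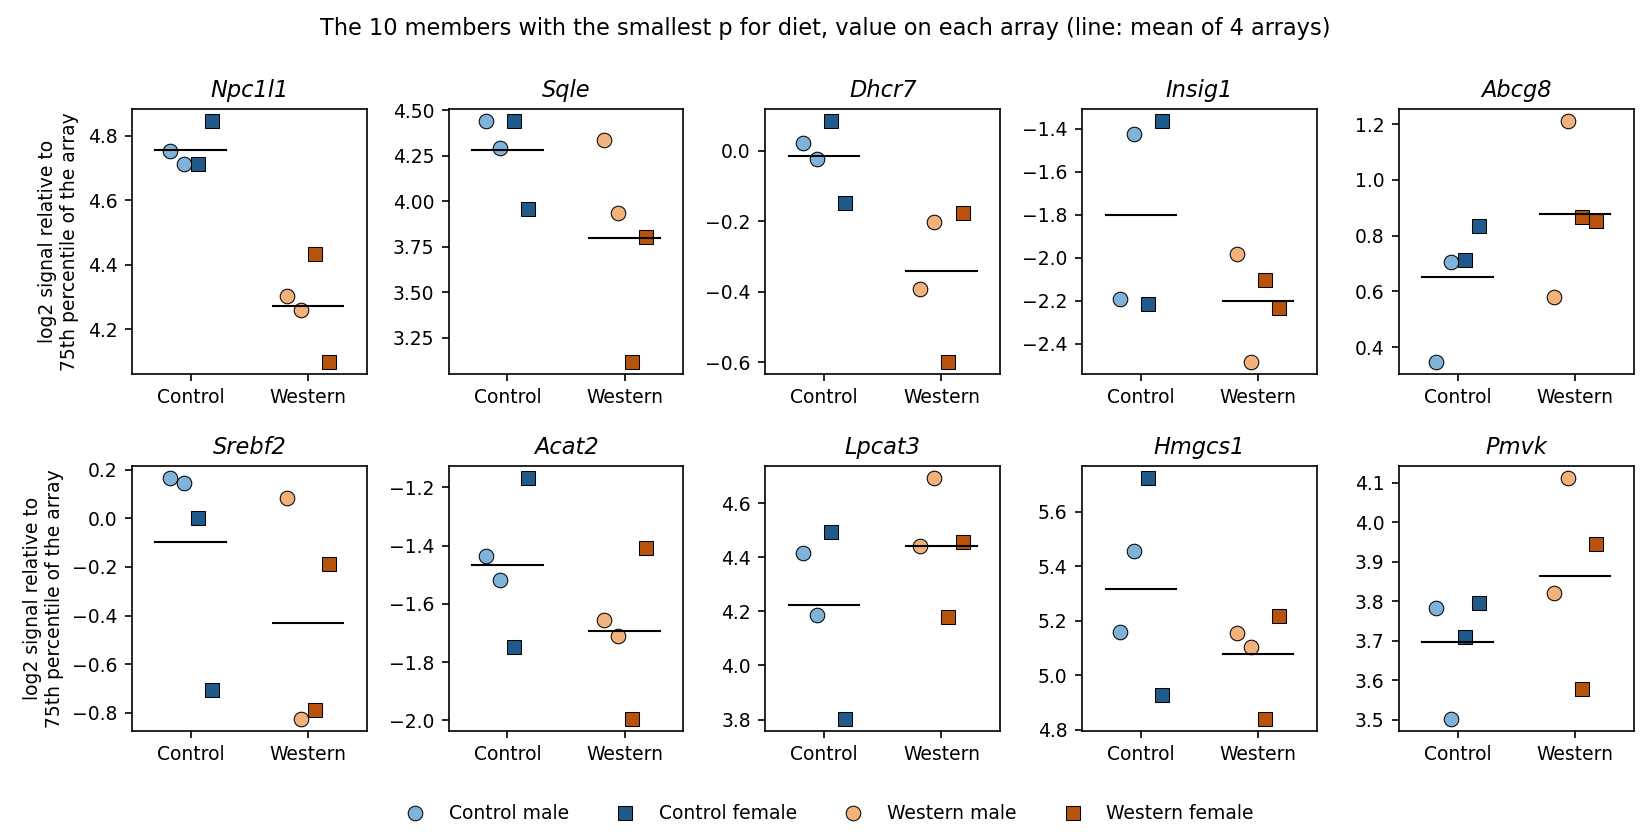
Log2 signal relative to the 75th percentile of the array for the 10 genes with the smallest p for diet, on each array of the control (blue) and Western (orange) diet, circles for males, squares for females and a line at the mean of 4 arrays. Each panel has its own scale, and in the Npc1l1 and Dhcr7 panels every Western point lies below every control point.

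The promoter of Npc1l1 is shown beside that of Hmgcs1, the synthesis gene in whose window a match to the SREBP binding site was found, since SREBP2 is known to act on both. Each window runs from 250 bases before to 50 bases after a start site in RefSeq (build GRCm38.p6) and is printed 5′ to 3′ on the strand of the gene. Capitals mark matches on either strand to the SREBP site TCACNCCAC, the CCAAT box (bound by NF-Y, the partner of SREBP) and the GC box GGGCGG (bound by Sp1). Hmgcs1 lies at chr13:119690101-119690400 on the plus strand and Npc1l1 at chr11:6230196-6230495 on the minus strand.
Hmgcs1: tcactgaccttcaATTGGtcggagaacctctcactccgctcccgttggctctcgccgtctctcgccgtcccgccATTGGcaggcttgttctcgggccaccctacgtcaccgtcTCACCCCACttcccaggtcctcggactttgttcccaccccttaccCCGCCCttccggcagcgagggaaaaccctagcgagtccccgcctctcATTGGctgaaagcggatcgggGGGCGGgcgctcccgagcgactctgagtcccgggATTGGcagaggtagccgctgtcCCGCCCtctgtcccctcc
Npc1l1: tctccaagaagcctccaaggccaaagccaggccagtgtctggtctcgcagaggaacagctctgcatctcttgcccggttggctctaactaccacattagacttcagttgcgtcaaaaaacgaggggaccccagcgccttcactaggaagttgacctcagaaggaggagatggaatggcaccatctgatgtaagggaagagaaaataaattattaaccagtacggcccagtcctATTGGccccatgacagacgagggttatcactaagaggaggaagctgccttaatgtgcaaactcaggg
The Hmgcs1 window held 8 matches: 1 SREBP site starting at base -137 from the start site, 4 CCAAT boxes and 3 GC boxes, none of which overlapped. The Npc1l1 window held 1, a CCAAT box starting at base -17 and read on the opposite strand. Windows were found for 25 of the 31 genes, 17 synthesis and 8 transport. A CCAAT box was in 16 of the 17 synthesis and 5 of the 8 transport genes, against 41.1% of the 27025 genes with a window. A GC box was in 16 of 17 and 3 of 8, against 38.2%, and the SREBP site was in 1 of 17 and 0 of 8, against 1.44%. These are matches of letters in one window, not sites shown to be bound.

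Among the enzymes, Sqle stood first by p. It encodes squalene epoxidase, which commits squalene to the sterol branch and is one of the slow steps of the pathway. Its log2 signal was 4.44 and 4.29 on the Control males, 4.44 on the library labelled Control female 1 and 3.96 on Control female 2. On the Western arrays it was 4.34 and 3.93 in males and 3.12 and 3.80 in females. The diets overlapped, with Western male 1 among the controls and Western female 1 far below the rest. The difference was -0.48 ± 0.23 SE, 1.40-fold lower on the Western diet (limma adjusted p = 0.994), -0.36 without the library labelled Control female 1 and -0.31 without Western female 1.

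Dhcr7 encodes the reductase of the last step to cholesterol. It measured 0.023 and -0.022 on the Control males, 0.084 on the library labelled Control female 1 and -0.15 on Control female 2. It measured -0.39 and -0.20 on the Western males and -0.60 and -0.18 on the Western females. Every Western array was below every control array, though the nearest pair, Control female 2 and Western female 2, lay almost together. The difference was -0.33 ± 0.16 SE (1.25-fold, limma adjusted p = 0.994), -0.55 within slide 1 and -0.091 within slide 3. Npc1l1 and Dhcr7 were thus the 2 of 31 (6.45%) that were lower without overlap, and 0 of 31 were higher without overlap. Over all genes those shares were 2.35% and 0.827%, and 1.9% and 0.969% over the genes well above background on all 8 arrays.

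Hmgcs1, the enzyme that joins acetyl units into HMG-CoA, had the SREBP site shown above. It measured 5.16 and 5.46 on the Control males, 5.72 on the library labelled Control female 1 and 4.93 on Control female 2, against 5.15, 5.10, 4.84 and 5.22 on Western male 1 and 2 and Western female 1 and 2. The 2 control female arrays were the highest and the second lowest of the 8. The difference was -0.24 ± 0.23 SE, -0.039 without the library labelled Control female 1, and 0.023 within slide 3. Acat2, the cytosolic thiolase that makes acetoacetyl-CoA for this step, measured -1.44, -1.52, -1.75 and -1.17 on the control arrays in the same order and -1.66, -1.71, -1.995 and -1.41 on the Western arrays. Its diets overlapped (difference -0.22 ± 0.21 SE, and -0.078 without Western female 1). Pmvk, the kinase that makes mevalonate diphosphate, went the other way, at 3.78, 3.503, 3.71 and 3.80 against 3.82, 4.11, 3.58 and 3.94. It was one of the 2 enzymes measured higher (0.17 ± 0.17 SE, and 0.074 without Western female 2). The other was Sc5d, a desaturase late in the pathway (0.12 ± 0.19 SE, and 0.007 without Control male 1).

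The other enzymes are given by their place in the pathway. Of those that build and join isoprene units, Mvd, the decarboxylase after Pmvk, had a difference of -0.21 and Fdft1, squalene synthase, -0.27. The kinase Mvk, the isomerase Idi1 and the farnesyl diphosphate synthase Fdps lay between -0.063 and -0.051. Of the steps from squalene to cholesterol, Lss, which closes the rings to lanosterol, had -0.29, Msmo1 -0.24, Hsd17b7 -0.23 and Cyp51 -0.16. The last 3 encode enzymes that act in the steps removing methyl groups from lanosterol. Several of these values leaned on 1 array: without the library labelled Control female 1, Msmo1 had -0.057, Hsd17b7 -0.021, Mvd -0.11, Lss -0.10 and Cyp51 0.054. When Western female 1 was dropped, Mvd had -0.054, Fdft1 -0.027 and Lss 0.044. Ebp, Nsdhl and Tm7sf2, an isomerase, a demethylating dehydrogenase and a reductase, lay between -0.057 and -0.030. No standard error of these 12 was below 0.17, and none had an unadjusted p below 0.365, so each difference lay within the error of the fit or close to it.

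Of the regulators, Insig1, whose product retains the SREBP complex and whose transcript is itself an SREBP target, measured -2.19 and -1.42 on the Control males, -2.22 on the library labelled Control female 1 and -1.36 on Control female 2. On the Western arrays it measured -1.98, -2.48, -2.10 and -2.24. Both control arrays on slide 3 were high and both on slide 1 were level with the Western arrays. The difference was -0.40 ± 0.29 SE (limma adjusted p = 0.994), but 0.16 within slide 1 and -0.84 within slide 3. It was -0.62 without the library labelled Control female 1 and -0.19 without Control female 2. Srebf2 itself measured 0.17, 0.14, 0.001 and -0.71 on the control arrays in the same order and 0.085, -0.82, -0.79 and -0.19 on the Western arrays, with overlap (-0.33 ± 0.29 SE). Its second probe gave the opposite sign (0.43), so no direction can be stated for Srebf2. Stard4, which carries sterol between membranes, measured 3.31, 2.60, 3.47 and 2.12 against 3.19, 2.60, 2.52 and 1.86 (-0.34 ± 0.38 SE), and the difference was 0.002 without the library labelled Control female 1.

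The synthesis genes tended to stand high or low together on single arrays. On Western female 1, 19 of the 21 lay below their own mean over the 8 arrays, 13 had their lowest value of all arrays, and the median deviation was -0.40. On the library labelled Control female 1, 11 of the 21 had their highest value, and the median deviation was 0.29. On the other 6 arrays the median deviation lay between -0.093 and 0.17, with Western male 1 at the top and Western male 2 at the bottom, so outside those 2 arrays the diets overlapped. The median diet difference of -0.22 became -0.060 without the library labelled Control female 1 (14 of 21 lower). All genes then had a median of -0.079 (60.5% lower). Omitting Western female 1 gave -0.054 (12 of 21 lower), against -0.075 over all genes (60.7% lower). Omitting Western male 2 gave -0.12 (18 of 21 lower), against -0.07 over all genes (61.4% lower). Within slide 1, which holds the library labelled Control female 1, the synthesis median was -0.32 (17 of 21 lower). All genes there had a median of -0.055 (57.4% lower). Within slide 3 the synthesis median was 0.023 (10 of 21 lower), against -0.131 over all genes (61.1% lower). After quantile normalization the synthesis median was -0.19 (18 of 21 lower, against 41.4% of all genes). Western female 1 also had the highest mean of the enterocyte markers (0.35) and a high mean of the proximal markers (0.51), and the library labelled Control female 1 had the lowest mean of the red blood cell markers (-1.78, 5 of 7 measured). Their part in the pattern was not tested.

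**Figure D3:**
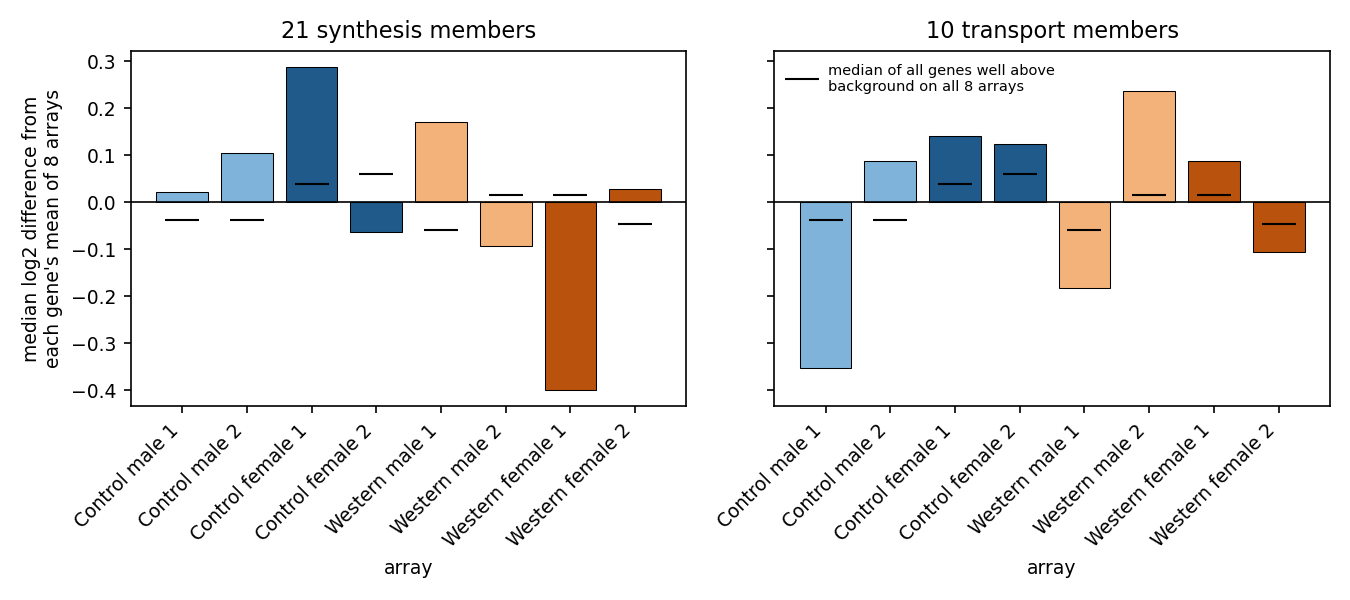
Median over the 21 synthesis genes (left) and the 10 transport genes (right) of the log2 difference from each gene's mean of 8 arrays, one bar per array, with a dash for the median of all genes well above background on all 8 arrays. The synthesis bars are extreme on the library labelled Control female 1 (0.29) and Western female 1 (-0.40), and the lowest transport bar is that of Control male 1 (-0.35).

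Among the export pumps, Abcg5 and Abcg8 encode the subunits of one pump and are read in opposite directions from a shared stretch of chromosome 17. The window of the Abcg8 start, chr17:84682871-84683170 on the plus strand, overlapped that of Abcg5, chr17:84682962-84683261 on the minus strand, by 209 bases. It is printed with its 2 CCAAT boxes in capitals.
Abcg8: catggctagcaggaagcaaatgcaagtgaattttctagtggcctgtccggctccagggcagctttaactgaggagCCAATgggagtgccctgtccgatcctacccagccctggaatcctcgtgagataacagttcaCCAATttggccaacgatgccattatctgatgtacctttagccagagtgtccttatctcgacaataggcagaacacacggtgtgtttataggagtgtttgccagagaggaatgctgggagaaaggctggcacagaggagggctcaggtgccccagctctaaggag
Abcg8 measured 0.35 and 0.70 on the Control males, 0.71 on the library labelled Control female 1 and 0.83 on Control female 2, against 0.58 and 1.21 on the Western males and 0.86 and 0.85 on the Western females. Every Western array but Western male 1 was above every control array. The difference was 0.23 ± 0.19 SE (1.17-fold higher, limma adjusted p = 0.994), and it shrank to 0.14 without Control male 1 and to 0.069 when Western male 2 was dropped. Abcg5 measured 5.98, 6.47, 6.50 and 6.50 on the control arrays in the same order and 6.19, 6.63, 6.45 and 6.30 on the Western arrays, a difference of 0.030 ± 0.19 SE. Both genes had their lowest value on Control male 1 and their highest on Western male 2.

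Abca1, the pump that loads HDL, lay between 1.12 and 1.92 on the control and between 1.35 and 2.11 on the Western diet (0.098 ± 0.26 SE), again lowest on Control male 1 and highest on Western male 2. Scarb1 encodes the HDL receptor SR-BI, found on both faces of the enterocyte. It measured -2.99, -3.84 and -4.73 on Control male 1, Control male 2 and the library labelled Control female 1, and -2.90, -3.77, -3.16 and -3.20 on the Western arrays, but 0.066 on Control female 2. Its second probe was also highest there (-2.04, against -5.57 to -3.68 on the other arrays). The diet difference of -0.38 ± 1.02 SE rests on that array: it was 0.82 without Control female 2 and -1.58 without the library labelled Control female 1, so Scarb1 has no stable direction here.

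Of the liver X receptors, Nr1h3 lay between 3.58 and 4.34 on the control and between 3.58 and 4.28 on the Western diet (-0.010 ± 0.20 SE), and Nr1h2 between 3.68 and 4.38 and between 3.82 and 4.30 (-0.082 ± 0.20 SE). Both are expressed across the tissue, and the ranges of the diets covered each other. Lpcat3, an LXR target which builds polyunsaturated phospholipid into enterocyte membranes, measured 4.42, 4.19, 4.49 and 3.80 on the control arrays in the order used above and 4.44, 4.69, 4.18 and 4.46 on the Western arrays (0.22 ± 0.21 SE). The Lpcat3 difference was 0.046 without Control female 2 and 0.39 without the library labelled Control female 1. Mylip, the ubiquitin ligase that degrades lipoprotein receptors, had 0.26 ± 0.30 SE on the tested probe and -0.73 on a dimmer one, so no direction can be stated. Soat2, which makes the cholesteryl esters that enter chylomicrons, had 0.050 ± 0.24 SE and ranged from 4.55 to 5.23 over all arrays.

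The transport genes shared an array pattern other than diet. Control male 1 held the lowest value of 6 of the 10, with a median deviation of -0.35. That array also had the highest means of the smooth muscle markers (3.26, with -1.32 to 0.22 on the others) and the fibroblast markers (2.98, with -0.98 to 0.51), and the part of this in the transport values was not tested. Without Control male 1 the median transport difference turned from 0.040 to -0.062, and 8 of 10 then measured lower instead of 4. All genes then had a median of -0.051 (57.2% lower). Omitting Western male 2 gave 7 lower, against 61.4% of all genes, and omitting Western female 1 gave 6, against 60.7%. Omitting Control male 2, Western female 2 or Western male 1 gave 2, against 60.6%, 57.7% and 57.7%. Omitting the library labelled Control female 1 left 4, against 60.5%. Npc1l1 was not part of this pattern, since its lowest 4 values were those of the Western arrays.

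The same comparison within each sex gave different counts. In males, 11 of the 21 synthesis genes measured lower (median -0.043), against 52.2% of all genes and 49.3% of those well above background on all 8 arrays. In females 20 of 21 did (median -0.32), against 63.4% and 59% of the same sets. Dropping Western female 1 left 14 of 21 lower in females, with a median of -0.11 against -0.16 for all genes. In both sexes 11 synthesis genes were lower, among them Sqle, Dhcr7, Insig1, Hmgcs1, Lss and Fdft1, and 9 were higher in males and lower in females. The shares of all genes with these patterns over the sexes were not computed. The 11 count the tested probe of Srebf2, whose second probe had the opposite sign for diet. Of those 11, Hmgcs1 (0.099), Lss (0.046), Srebf2 (0.217) and Stard4 (0.066) turned in females without the library labelled Control female 1. The rest of the 11 kept their sign. Of the transport genes, Npc1l1 was the 1 lower in both sexes, Abcg8, Lpcat3 and the tested probe of Mylip (not its other probe) were higher in both, and 6 were higher in males and lower in females. The male count of 1 of 10 transport genes lower (median 0.18) became 6 of 10 without Control male 1 (median -0.053), against 48.2% of all genes. It was likewise 6 of 10 when Western male 2 was dropped (median -0.030), against 53.8% of all genes. No gene of the 31 passed the threshold in either sex (limma adjusted p at least 0.949). In females Npc1l1 had an unadjusted p of 0.0473, and 4.55% of all genes had an unadjusted p under 0.05 and a lower value on the Western diet.

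**Figure D4:**
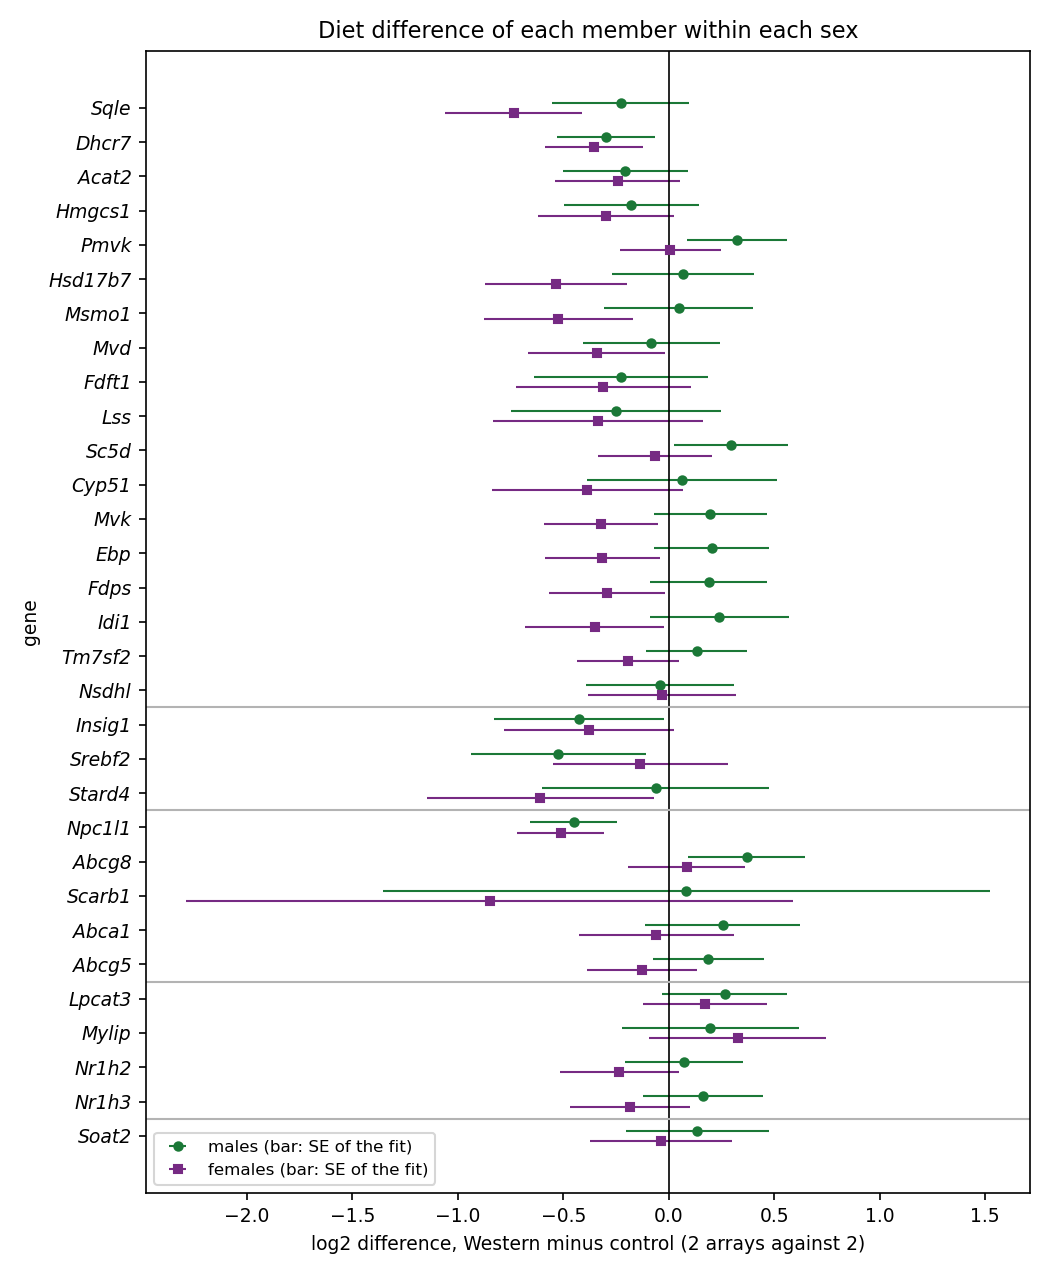
Log2 difference of the Western from the control diet for each of the 31 genes in males (green circles) and females (purple squares), 2 arrays against 2, with the standard error of the fit as a bar, in blocks by role as in the heat map. Npc1l1 lies at -0.45 and -0.51, and most enzymes lie lower in females than in males with bars that overlap.

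The difference between the sexes in the diet effect was tested directly. Of the 31 genes, 27 had a lower difference in females than in males, against 64.6% of all genes and 62.7% of those well above background on all 8 arrays, and the adjusted p was 1 for each of them. The smallest unadjusted p belonged to 3 enzymes. Mvk had a difference of -0.52 ± 0.38 SE between the sexes, with 2.89 and 2.95 on the Control males, 3.58 on the library labelled Control female 1, 3.04 on Control female 2, 3.05 and 3.18 on the Western males and 2.78 and 3.20 on the Western females. Ebp had -0.52 ± 0.38 SE, with 5.37, 5.61, 5.79, 5.91, 5.45, 5.94, 5.76 and 5.30 on the arrays in the same order. Hsd17b7 had -0.60 ± 0.48 SE, with -0.46, -0.46, 0.13, -0.72, -0.17, -0.61, -0.71 and -0.95. For Mvk and Hsd17b7 the highest array of the 8 was the library labelled Control female 1, so the female side of both differences leans on the array with the doubtful label. Without that library the differences between the sexes were -0.25 for Mvk, -0.18 for Hsd17b7 and -0.58 for Ebp. Without it, 23 of the 31 genes had a lower difference in females than in males, against 65.2% of all genes. In females, 16 of the 21 synthesis genes then measured lower (median -0.11), against 62.9% of all genes (median -0.141).

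Between the sexes averaged over the diets, 19 of the 31 genes measured lower in females, against 37.6% of all genes and 39.8% of those well above background on all 8 arrays. None of the 31 passed (limma adjusted p 0.903 to 1), with 0 of 21303 genes (0%) called in all and 824 at an unadjusted p under 0.05. The smallest p was that of Nr1h3, which measured 3.58 and 3.64 on the Control males, 4.34 and 4.01 on the library labelled Control female 1 and Control female 2, 3.58 and 3.97 on the Western males, and 4.28 and 3.70 on the Western females. Its difference was 0.39 ± 0.20 SE, with overlap through Western male 2 and Western female 2. Sqle had -0.42 ± 0.23 SE and Mvd 0.28 ± 0.23 SE, of the size of their errors or less than 2 of them. Without the library labelled Control female 1 these were 0.31 for Nr1h3, -0.54 for Sqle and 0.18 for Mvd. Again 19 of the 31 genes then measured lower in females, against 36.5% of all genes. For Mvd the arrays, in the same order, were at 0.70, 1.23, 1.57, 1.17, 0.78, 0.98, 0.71 and 1.35.

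A further 43 genes of sterol handling, such as SREBP escorts and proteases, other sterol carriers, apolipoproteins and lipoprotein receptors, were counted as background, and 41 passed the filter. For diet 21 measured lower and 20 higher (median -0.010), 0 passed (limma adjusted p 0.994 to 0.999), and 2 had an unadjusted p under 0.05, both higher, against 0.629% of all genes called higher at that threshold. Cd36, a scavenger receptor that takes up fatty acids, measured -2.12, -1.71, -0.88 and -0.074 on the control arrays, the third being the library labelled Control female 1, and -0.78, 0.31, 1.20 and -0.15 on the Western arrays (1.34 ± 0.42 SE). Osbpl1a, an oxysterol-binding protein, measured -0.91, -0.31, 0.32 and -0.35 against -0.31, 0.31, 0.59 and 0.28, with overlap (0.53 ± 0.26 SE).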

How the data were processed

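RNA from 8 samples was hybridised in one colour (Cy3) to Agilent arrays of design 026655. The deposited values were the processed signal of each spot, a linear intensity from Feature Extraction 10.7.3.1 that already had background subtracted, per the file headers; the deposited flags mark outliers and spots well above background. Control spots (1377) and outlier spots (94 to 216 per array) were left out, no spot was saturated, and repeated probes were averaged. Values are log2 of the processed intensity minus the array's 75th percentile. Probe accessions were named through RefSeq (GRCm38.p6) without versions, for 26412 of 39429 probes. The headers name build mm9, so probe positions are not given. Probes needed a well-above-background flag on 2 or more arrays, and the brightest probe of each gene was tested. The 31 genes had 42 probes; of the 11 genes with 2, Srebf2 and Mylip had probes of opposite sign.

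Group means were fitted with limma 3.58.1 (R 4.3.3) over all 8 arrays and 21303 genes, with 4 residual and 2.01 prior degrees of freedom, and p-values were adjusted by Benjamini-Hochberg at 0.05. The script was tested on simulated data. With 8 arrays, their number limits the precision. The genes, lists and tests were chosen with earlier results of these data known. The values of 1 further sterol gene are not reported here. Values on every array are given for the 10 genes with the smallest p for diet and the 3 with the smallest p in each other comparison; the values of Abcg5, Stard4, Scarb1 and the second probes were added after seeing them, as were the Npc1l1 and Abcg8 promoters. Alternatives were quantile normalization, normexp (offset 50, on median pixel signals, since no mean column was in the files), other probe filters, the mean of probes, scan day and replicate as blocks, single slides, and each array left out.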

Additional observations from a re-analysis of the deposited data

Results flagged for a closer look

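Of 62 sets of 4 arrays (each of the 31 genes on each diet), 2 held an array far from the other 3 by Dixon's criterion, and chance alone marks about 1 in 20. Sc5d measured 3.95 on Control male 1, against 4.38 to 4.43 on the other control arrays. Abcg5 measured 5.98 on Control male 1, against 6.47 to 6.50 on the others. Both were low on the array with the highest smooth muscle and fibroblast markers, whose part in these values was not tested.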

How the results depend on the processing

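Over the 15 alternatives with a test, none of the 31 genes passed for diet (smallest adjusted p = 0.115, Scarb1 without the library labelled Control female 1), and for 14 genes the difference kept its sign in all 15. With the single slides counted too, 7 genes kept it: Npc1l1, Sqle, Dhcr7, Msmo1, Hsd17b7, Acat2 and Abcg8. The share of all genes that kept their sign was not computed, and the alternatives reuse the same arrays. Counts of genes called over the whole array stayed at 0 except when a control female array was left out, which leaves 1 array assumed to vary like the other groups: leaving out each array in turn gave 0 to 377 genes for diet in females (377 when the library labelled Control female 1 was dropped and 2 when Control female 2 was, none of the 31 in either), 0 to 2 for the difference between the sexes and 0 to 3 for sex. The median of the synthesis genes was -0.31 to -0.054 with an array left out and 0.023 within slide 3. The sign of small differences turned with single arrays: Idi1 from -0.22 to 0.11, Fdps from -0.18 to 0.076, Lss from -0.63 to 0.044, Cyp51 from -0.43 to 0.11, Nsdhl from -0.25 to 0.17, Mvk from -0.20 to 0.074, Stard4 from -0.67 to 0.002, Ebp from -0.18 to 0.064, Tm7sf2 from -0.14 to 0.080, Abcg5 from -0.092 to 0.15, Abca1 from -0.092 to 0.29, Scarb1 from -1.58 to 0.82, Soat2 from -0.11 to 0.21, Nr1h2 from -0.20 to 0.039, Nr1h3 from -0.15 to 0.13 and Mylip from -0.032 to 0.56. It also turned for Idi1 (0.015) and Nr1h3 (0.037) with normexp, Nsdhl with quantile normalization (0.046) and scan day as a block (0.025), Tm7sf2 with scan day (0.032), and Srebf2 (0.049) and Mylip (-0.24) with the mean of their probes; the cause was not tested. The labels' replicate numbers follow the slides in part (replicate 1 of every group lay on slide 1) and are not stated to pair mice: same-numbered arrays deviated together with r from -0.12 to 0.35 over genes, and with it as a replicate block the count for diet was 0 and the difference of Npc1l1 -0.48, with no call changed.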
